A study of Mus musculus with 12 samples.

Results

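The genes described here are 33 mouse genes of DNA replication and cell division, taken by symbol and grouped by role into 10 replication genes, 13 mitotic regulators and 10 spindle and chromosome genes. Their transcripts were read with Illumina bead arrays, 1 array for each of 12 hearts from adult male mice of the strain C57Bl/6J. Of the 45281 probes of the array, 62 were annotated to 31 of the 33 genes. Ccnb1 and Mki67 had no probe under these symbols.

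The hearts formed 4 groups. VEGFR1del_VEGFB (n = 4) were Cdh5-Cre-ERT2; Flt1 flox/flox hearts in which tamoxifen deleted VEGFR1, the receptor encoded by Flt1, in endothelial cells, and which received AAV-VEGF-B, a virus carrying the growth factor VEGF-B. WT_VEGFB (n = 2) were wild-type hearts given the same virus. VEGFR1del_Scramble (n = 3) were labelled as deleted and as given AAV-Scramble, though replicate 3 had the Flt1 level of a wild-type heart, and WT_Scramble (n = 3) were wild-type hearts with AAV-Scramble. The Cdh5 promoter limits the Cre to endothelial cells, so the other cells of these hearts kept the gene. The labels give virus injection as intraperitoneal, and say neither whether wild-type mice carried Cre or received tamoxifen nor how old the mice were. Each sample was whole heart tissue.

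A dividing cell licenses its replication origins with the MCM helicase and copies its DNA, for which ribonucleotide reductase and thymidylate synthase supply deoxynucleotides. It then enters mitosis under the kinases Cdk1, Plk1 and the Aurora kinases, and leaves it when the anaphase-promoting complex, activated by Cdc20, destroys mitotic proteins. Adult cardiomyocytes rarely divide, so transcripts of these genes are scarce in the adult heart, and cells such as endothelial, stromal and immune cells divide more readily. Many promoters of mitotic genes hold a CCAAT box, bound by NF-Y, and a cell cycle homology region, bound by repressor complexes in resting cells. Many promoters of replication genes hold sites for E2F factors.

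The 250 bases before the transcript start in RefSeq's promoter table (GRCm38.p6) are shown for 5 members whose signal was higher in VEGFR1del_VEGFB than in WT_Scramble hearts: Prc1, with the largest difference, a pair of mitotic regulators and a pair of MCM subunits. They are printed 5′ to 3′ on the gene's strand. Capitals mark the box CCAAT, the word TTTGAA (core of the cell cycle homology region) and the E2F-type words, which are TTCCCGC or else TTGGCGC, on either strand. Prc1 lies at chr7:80294201-80294450 (plus strand), Cdc20 at chr4:118437344-118437593 (minus strand), Cdk1 at chr10:69352913-69353162 (minus strand), Mcm5 at chr8:75109259-75109508 (plus strand) and Mcm6 at chr1:128359706-128359955 (minus strand), as windows.
Prc1: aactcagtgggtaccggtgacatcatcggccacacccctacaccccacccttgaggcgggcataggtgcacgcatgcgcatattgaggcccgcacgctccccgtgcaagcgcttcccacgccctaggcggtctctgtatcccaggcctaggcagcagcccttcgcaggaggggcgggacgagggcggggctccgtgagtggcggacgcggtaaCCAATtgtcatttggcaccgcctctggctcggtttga
Cdc20: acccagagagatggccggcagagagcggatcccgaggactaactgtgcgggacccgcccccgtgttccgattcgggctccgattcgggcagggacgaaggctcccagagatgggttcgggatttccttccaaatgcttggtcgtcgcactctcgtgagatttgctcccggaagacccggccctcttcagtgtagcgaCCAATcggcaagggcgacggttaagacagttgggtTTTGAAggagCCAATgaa
Cdk1: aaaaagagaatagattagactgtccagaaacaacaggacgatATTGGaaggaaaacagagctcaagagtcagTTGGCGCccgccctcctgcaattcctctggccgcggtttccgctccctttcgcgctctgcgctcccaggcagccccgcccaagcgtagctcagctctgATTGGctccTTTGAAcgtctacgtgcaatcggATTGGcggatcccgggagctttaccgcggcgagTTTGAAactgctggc
Mcm5: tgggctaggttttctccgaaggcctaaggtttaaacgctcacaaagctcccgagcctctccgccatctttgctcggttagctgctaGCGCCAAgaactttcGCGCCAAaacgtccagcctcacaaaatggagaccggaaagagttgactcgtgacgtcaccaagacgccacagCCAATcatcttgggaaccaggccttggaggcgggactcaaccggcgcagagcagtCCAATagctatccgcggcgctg
Mcm6: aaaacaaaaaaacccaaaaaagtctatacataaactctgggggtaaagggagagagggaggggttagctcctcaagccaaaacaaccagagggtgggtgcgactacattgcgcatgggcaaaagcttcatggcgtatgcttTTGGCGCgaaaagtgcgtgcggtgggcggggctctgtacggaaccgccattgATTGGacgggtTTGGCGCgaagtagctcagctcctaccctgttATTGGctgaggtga
Cdc20 and Cdk1 held CCAAT together with TTTGAA, with the TTTGAA nearest the start 18 bases before it in Cdc20 and 15 bases before it in Cdk1. Mcm5 and Mcm6 each held 2 CCAAT and 2 E2F-type words, and Prc1 held a single CCAAT 37 bases before the start its window uses. For Prc1 and Mcm5 that transcript start is not the start of the gene's own record in RefSeq's gene table. The Prc1 window ends in tttga and the bases after the start were not read, so a TTTGAA across that edge would be missed.

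Over the members, 27 of 33 had a window in the table. CCAAT stood in 24 of the 27, against 33.8% of all 32851 windows of the same length, where a gene can have several windows. TTTGAA stood in 9 of 27 member windows, against 16% of all windows, and each of these 9 also held CCAAT, against 5.55% of all windows with both. An E2F-type word stood in 7 of 27, against 5.62%; it can overlap CCAAT on the other strand. Among the members with a higher signal in VEGFR1del_VEGFB than in WT_Scramble hearts, 7 of 10 windows held CCAAT, 2 held TTTGAA and 3 held an E2F-type word. Among the measured members that did not pass that test, the counts were 9, 3 and 2 of 9 windows. The windows of Aurka, Bub1b, Cenpf, Mcm5, Mcm7, Mki67, Prc1, Top2a and Tyms do not end at the start of the gene's own record. Their words therefore depend on the transcript start used. These counts describe letters in a window and do not show binding.

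The targeted gene was read first. The brighter Flt1 probe had normalized log2 signals of 9.00, 9.36, 8.93 and 9.47 in VEGFR1del_VEGFB, 11.51 and 11.22 in WT_VEGFB, 8.19, 8.46 and 11.56 in VEGFR1del_Scramble and 10.79, 10.90 and 10.91 in WT_Scramble hearts. The library labelled VEGFR1del_Scramble replicate 3 thus had the Flt1 level of a wild-type heart, above every WT_Scramble array and nearest to WT_VEGFB. On the second Flt1 probe it stood at 6.25, against 6.03 and 5.79 in WT_VEGFB and 5.32 to 5.58 in WT_Scramble. On the axis holding 39.5% of the variance between arrays it scored 3.75. WT_VEGFB scored 3.91 and 1.80 there, and VEGFR1del_Scramble replicates 1 and 2 scored -11.13 and -10.25. The cause was not tested. The comparisons with VEGFR1del_Scramble and the interaction are therefore given with this library and again without it. The authors' own normalized table treats the arrays as 3 sets: WT_Scramble with VEGFR1del_Scramble replicates 1 and 2, VEGFR1del_Scramble replicate 3 with WT_VEGFB, and VEGFR1del_VEGFB alone. Where these sets mark a batch, which no label states, set and group cannot be told apart for VEGFR1del_VEGFB hearts. WT_VEGFB and WT_Scramble also lie in different sets. Only the library labelled VEGFR1del_Scramble replicate 3 links them, so virus and set cannot be told apart there without relying on its label. Between 36.8% and 40.2% of all probes were detected per array (detection p under 0.05 against the array's negative control beads). Nothing in the labels says more of the hearts than that they are separate samples, so p-values measure the spread between these samples.

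Many members were at or below background. Of the 31 genes with a probe, 10 were detected on all 12 arrays, 11 on some arrays, Stmn1 on 1 array and 9 on none. The 10 detected throughout were the helicase subunits Mcm4, Mcm5, Mcm6 and Mcm7, Rrm1 (large subunit of ribonucleotide reductase), Tyms (thymidylate synthase), Bub1b (spindle checkpoint kinase BubR1), Cdc20, Prc1 (which bundles microtubules of the central spindle) and Hmgb2 (a chromatin protein). The 9 detected on no array were Pcna (the sliding clamp of DNA polymerases), the cyclins Ccna2 and Ccnb2, the checkpoint kinase Bub1, Ube2c (ubiquitin-conjugating enzyme of the anaphase-promoting complex), Cks2 (a Cdk1-binding protein), the motors Kif11 and Kif20a, and the spindle factor Tpx2. For these 9 genes and Stmn1, a microtubule-destabilizing protein, no level or difference can be given.

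The number of member probes detected differed between the groups. Of 62 member probes, 29, 26, 27 and 29 were detected in VEGFR1del_VEGFB hearts, 23 and 23 in WT_VEGFB, 18, 20 and 22 in VEGFR1del_Scramble and 20, 16 and 17 in WT_Scramble. The VEGFR1del_VEGFB arrays had more detected member probes than any other array, and WT_VEGFB more than any array without VEGF-B, by 23 against at most 22. Of all probes, too, more were detected with VEGF-B, at 38.7% to 40.2% per array, against 36.8% to 38.1% with AAV-Scramble. As genes, 17 members were detected on every VEGFR1del_VEGFB array, 15 on every WT_VEGFB, 14 on every VEGFR1del_Scramble and 10 on every WT_Scramble array. Of all probes, 34.6% were detected on every VEGFR1del_VEGFB array, 36.4% on every WT_VEGFB, 33.4% on every VEGFR1del_Scramble and 33.7% on every WT_Scramble array. No test was made of these counts, and a group of fewer arrays reaches "every array" more easily.

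**Figure D1:**
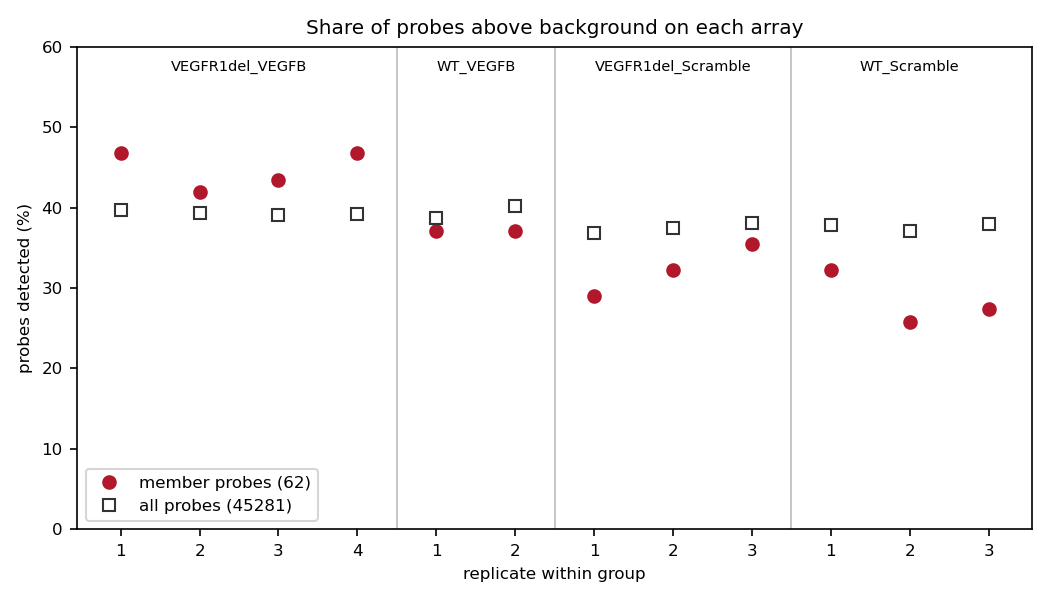
Share of the 62 member probes (filled circles) and of all 45281 probes (open squares) detected on each array, in percent, with arrays ordered by group. The 4 VEGFR1del_VEGFB arrays lie between 41.9% and 46.8% for member probes, against 25.8% to 32.3% on the 3 WT_Scramble arrays. For all probes the same arrays lie between 39.1% and 39.7%, against 37.1% to 38%, and all 12 arrays between 36.8% and 40.2%.

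A gene entered the fit when a probe was detected on at least 2 arrays, and was represented by its brightest probe. This left 21 members among 14240 genes. Members detected only where they are high entered because of that group, so the count over the 21 is a description of the measured members and not of all 33. All signals below are normalized log2 intensities, and they are compared between hearts for one probe, not between genes. Adjusted p-values are from limma with Benjamini-Hochberg adjustment over all 14240 genes, with a call at an adjusted p under 0.05.

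The comparison of VEGFR1del_VEGFB with WT_Scramble hearts gives the joint difference of deletion and virus. In it 10 of 21 measured members rose and 0 fell: Mcm5, Mcm6, Tyms, Bub1b, Cdc20, Cdk1, Plk1, Birc5, Prc1 and Nusap1. Over all genes 21% were called, 11.6% as higher. The median log2 difference was 0.40 over the measured members and -0.03 over all genes. With no filter, 10 of the 31 members with a probe were called, all higher and with Kif11 (detected on no array) in the place of Mcm5, while 9.24% of all genes were called and the members' median was 0.20. By role, 3 of 9 measured replication genes, 5 of 7 mitotic regulators and 2 of 5 spindle and chromosome genes rose. With a probe there were 10, 12 and 9, so the filter set these denominators and the roles are not ranked. Of the 10 members detected on all arrays, 6 rose. The groups did not overlap for 11 of the 21, all higher in VEGFR1del_VEGFB, against 15.7% of all genes. Without the library labelled VEGFR1del_Scramble replicate 3 the same 10 members were called. The share of all called genes that were higher was 55.1% here and 83.2% when arrays were scaled to a common median, where 15.8% of all genes and 11 members were called, the members all higher.

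**Figure D2:**
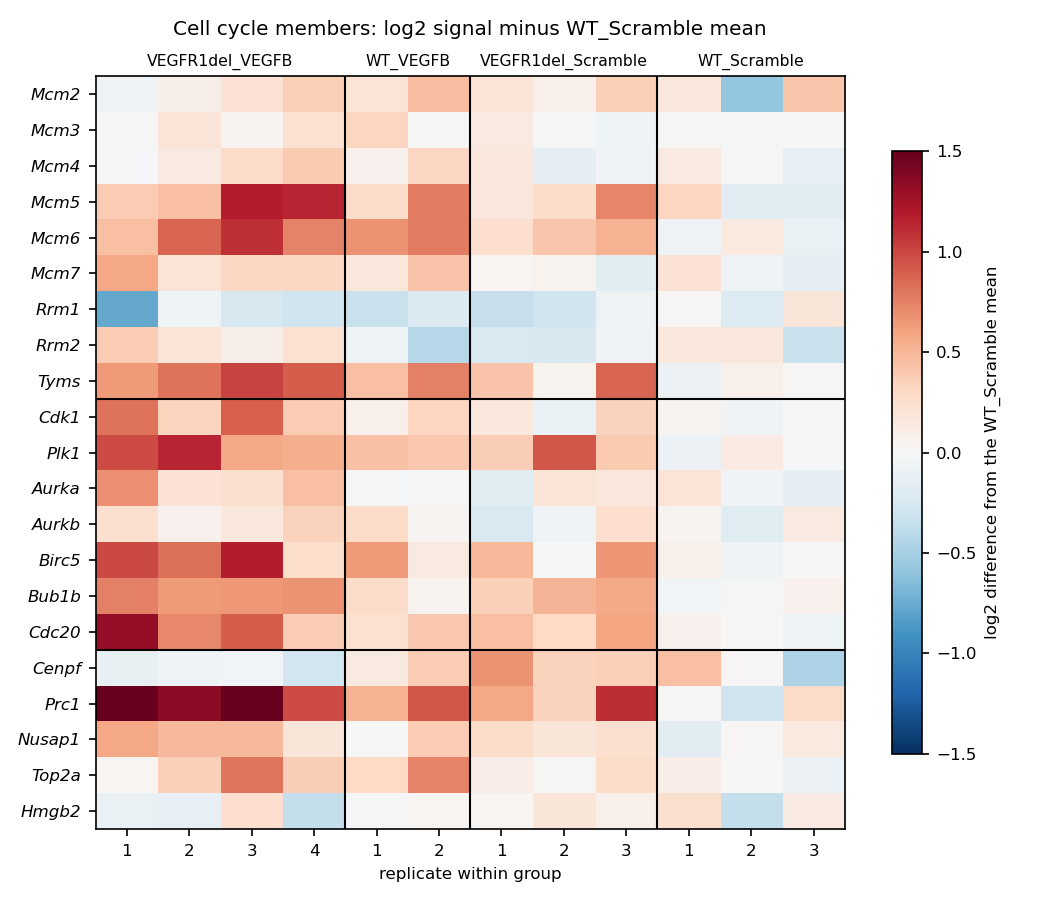
Normalized log2 signal of the 21 measured members on the 12 arrays as the difference from the gene's WT_Scramble mean (red higher, blue lower), with columns by group and rows by role from replication at the top to spindle and chromosome at the bottom. Red is deepest in VEGFR1del_VEGFB for Prc1, whose strongest values pass the end of the colour scale, while Rrm1 is blue on all 4 of these arrays.

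Prc1 had the largest difference. Its signals were 7.47, 6.83, 7.02 and 6.46 in VEGFR1del_VEGFB, 6.00 and 6.41 in WT_VEGFB, 6.06, 5.82 and 6.59 in VEGFR1del_Scramble and 5.50, 5.18 and 5.76 in WT_Scramble. All 9 arrays of the other 3 groups lay above every WT_Scramble array. VEGFR1del_VEGFB lay 1.47 above WT_Scramble (SE 0.23, adjusted p = 0.000777), a 2.76-fold difference.

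Bub1b had the smallest p. It stood at 6.26, 6.15, 6.16 and 6.18 in VEGFR1del_VEGFB, 5.78 and 5.56 in WT_VEGFB, 5.86, 6.01 and 6.08 in VEGFR1del_Scramble and 5.46, 5.49 and 5.57 in WT_Scramble. Every array labelled as deleted lay above every wild-type array, whichever virus was given. Among them, at 6.08, is the library labelled VEGFR1del_Scramble replicate 3, whose Flt1 level goes against its label. By Flt1 level the arrays were therefore not separated. The difference between VEGFR1del_VEGFB and WT_Scramble was 0.68 (SE 0.09, adjusted p = 0.000292). A second Bub1b probe, detected on 2 arrays, differed by -0.25 with an adjusted p of 0.278 among all probes. The 2 probes thus disagree, and when a gene's kept probes were averaged Bub1b was not called, nor was Tyms.

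Cdc20, the activator of the anaphase-promoting complex, stood at 6.83, 6.23, 6.41 and 5.89 in VEGFR1del_VEGFB, 5.74 and 5.91 in WT_VEGFB, 5.96, 5.81 and 6.10 in VEGFR1del_Scramble and 5.57, 5.51 and 5.45 in WT_Scramble. WT_Scramble arrays were again the lowest, and VEGFR1del_VEGFB replicate 4 lay among the WT_VEGFB and VEGFR1del_Scramble arrays. The difference was 0.83 (SE 0.17, adjusted p = 0.00419). Of its 4 kept probes, each tested on its own, 2 were called, one of them detected on no WT_Scramble array. Another, detected on 10 arrays, differed by 0.37 (adjusted p = 0.12), and the fourth, detected on 2 arrays and on none of WT_Scramble, was not called (adjusted p = 0.11).

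The mitotic kinases Plk1 and Cdk1 were near the detection limit. Plk1 stood at 5.56, 5.71, 5.14 and 5.12 in VEGFR1del_VEGFB, 5.01 and 4.98 in WT_VEGFB, 4.95, 5.51 and 4.96 in VEGFR1del_Scramble and 4.49, 4.69 and 4.54 in WT_Scramble. It was detected on each of the 9 arrays of the other 3 groups and on no WT_Scramble array. Against the detection floor of those arrays, Plk1 was at least 1.39-fold higher in VEGFR1del_VEGFB (adjusted p = 0.00421). Such a fold compares group means, so "at least" refers to the floor only and is no lower limit that allows for the spread between arrays. Cdk1 stood at 5.33, 4.85, 5.42 and 4.90 in VEGFR1del_VEGFB, 4.60 and 4.85 in WT_VEGFB, 4.69, 4.43 and 4.87 in VEGFR1del_Scramble and 4.57, 4.47 and 4.53 in WT_Scramble. It was detected on all VEGFR1del_VEGFB arrays, on 1 WT_VEGFB array and on none with AAV-Scramble, and was at least 1.17-fold higher in VEGFR1del_VEGFB than in WT_Scramble (adjusted p = 0.0134).

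Birc5 encodes survivin, a subunit of the chromosomal passenger complex. It stood at 5.85, 5.69, 6.03 and 5.12 in VEGFR1del_VEGFB, 5.50 and 4.99 in WT_VEGFB, 5.36, 4.86 and 5.52 in VEGFR1del_Scramble and 4.93, 4.79 and 4.86 in WT_Scramble. The difference was 0.81 (SE 0.21, adjusted p = 0.0146), with the probe detected on 1 WT_Scramble array. A second probe was detected on the 4 VEGFR1del_VEGFB arrays and on no other, so it passed the filter only through that group. Without WT_Scramble replicate 2 the adjusted p was 0.0533, past the threshold.

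The other 2 mitotic regulators measured were the Aurora kinases. Aurka, which acts at the spindle poles, stood at 5.43, 4.96, 4.99 and 5.20 in VEGFR1del_VEGFB, 4.73 and 4.76 in WT_VEGFB, 4.59, 4.96 and 4.92 in VEGFR1del_Scramble and 4.95, 4.69 and 4.60 in WT_Scramble. VEGFR1del_VEGFB and WT_Scramble did not overlap, but the adjusted p was 0.0564. It came under the threshold without WT_Scramble replicate 1, without VEGFR1del_Scramble replicate 1 or without VEGFR1del_VEGFB replicate 2, at 0.0414, 0.0457 and 0.0452. Aurkb, the passenger complex kinase that binds survivin, was detected on 4 arrays and on none of WT_Scramble, and did not pass the test (adjusted p = 0.303).

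**Figure D3:**
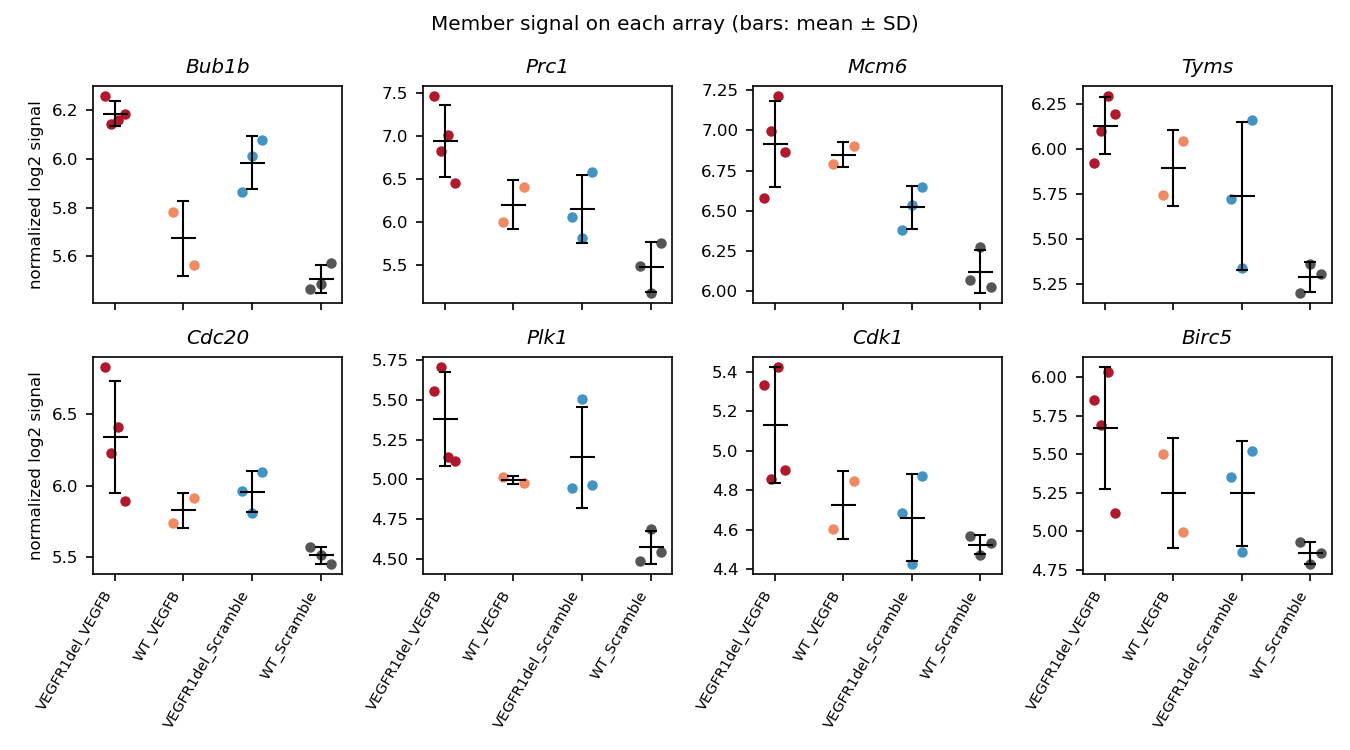
Normalized log2 signal on each array of the 8 members with the smallest p between VEGFR1del_VEGFB and WT_Scramble hearts, with points for arrays and black bars for the group mean ± SD (each panel has its own axis). WT_Scramble is the lowest group in every panel, and Bub1b is separated by the deletion label, though not by Flt1 level, which goes against that label in VEGFR1del_Scramble replicate 3.

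Among replication genes the MCM subunits did not move alike. Mcm6 stood at 6.58, 7.00, 7.21 and 6.86 in VEGFR1del_VEGFB, 6.79 and 6.90 in WT_VEGFB, 6.38, 6.54 and 6.65 in VEGFR1del_Scramble and 6.07, 6.27 and 6.02 in WT_Scramble. Every array of the other 3 groups lay above every WT_Scramble array. VEGFR1del_VEGFB was higher by 0.79 than WT_Scramble (SE 0.14, adjusted p = 0.00143), and each of the 3 kept Mcm6 probes was called, with differences of 0.79, 0.78 and 0.67.

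Mcm5 stood at 6.51, 6.58, 7.31 and 7.28 in VEGFR1del_VEGFB, 6.41 and 6.90 in WT_VEGFB, 6.30, 6.40 and 6.86 in VEGFR1del_Scramble and 6.46, 5.97 and 5.97 in WT_Scramble. It was higher by 0.79 in VEGFR1del_VEGFB than in WT_Scramble (SE 0.23, adjusted p = 0.0259), with replicates 3 and 4 well above the others. Mcm5 was no longer called without WT_Scramble replicate 2 or 3 or VEGFR1del_VEGFB replicate 3 or 4. The other subunits did not pass the test: Mcm7 differed by 0.35 (SE 0.12, adjusted p = 0.0626), Mcm4 by 0.19 (adjusted p = 0.291) and Mcm2 by 0.15 (adjusted p = 0.617), while Mcm3 was detected on 3 arrays and on none of WT_Scramble (adjusted p = 0.443). Without WT_Scramble replicate 1 the adjusted p of Mcm7 was 0.0325.

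The enzymes of deoxynucleotide supply also differed among themselves. Tyms stood at 5.92, 6.10, 6.29 and 6.20 in VEGFR1del_VEGFB, 5.74 and 6.04 in WT_VEGFB, 5.72, 5.33 and 6.16 in VEGFR1del_Scramble and 5.20, 5.36 and 5.30 in WT_Scramble. It was higher by 0.84 in VEGFR1del_VEGFB than in WT_Scramble (SE 0.17, adjusted p = 0.00306). Its other 2 kept probes, detected on 2 and 3 arrays, differed by -0.04 and 0.04.

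Rrm1 had the lowest difference of the measured members. It stood at 6.22, 6.92, 6.74 and 6.68 in VEGFR1del_VEGFB, against 7.01, 6.78 and 7.16 in WT_Scramble, and the groups overlapped. The difference of -0.34 (SE 0.15) had an adjusted p of 0.132, and a second probe detected on all 12 arrays gave 0.08. Rrm2, the small subunit, stood at 5.15, 4.95, 4.85 and 4.99 in VEGFR1del_VEGFB, 4.68 and 4.34 in WT_VEGFB, 4.54, 4.52 and 4.71 in VEGFR1del_Scramble and 4.93, 4.94 and 4.43 in WT_Scramble. It was detected on the 4 VEGFR1del_VEGFB and 2 WT_Scramble arrays and on no other, and its difference of 0.22 did not pass (adjusted p = 0.282).

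Of the remaining spindle and chromosome genes, Nusap1, a nucleolar and spindle-associated protein, stood at 5.36, 5.27, 5.27 and 4.96 in VEGFR1del_VEGFB, 4.78 and 5.16 in WT_VEGFB, 5.05, 4.96 and 5.02 in VEGFR1del_Scramble and 4.61, 4.80 and 4.93 in WT_Scramble. It was higher by 0.43 in VEGFR1del_VEGFB than in WT_Scramble (SE 0.12, adjusted p = 0.0256), and lost the call without WT_Scramble replicate 1 or 2 or VEGFR1del_VEGFB replicate 1, 2 or 3. Top2a, the topoisomerase that untangles replicated DNA, was detected on 3 VEGFR1del_VEGFB and 2 WT_VEGFB arrays and on none with AAV-Scramble. It stood at 4.61, 4.94, 5.38 and 4.96 in VEGFR1del_VEGFB, 4.88 and 5.33 in WT_VEGFB, 4.69, 4.60 and 4.85 in VEGFR1del_Scramble and 4.68, 4.57 and 4.50 in WT_Scramble. Its difference between VEGFR1del_VEGFB and WT_Scramble did not pass (adjusted p = 0.106), and had an adjusted p of 0.0347 without VEGFR1del_VEGFB replicate 1. Hmgb2 differed by -0.08 (adjusted p = 0.748), with groups that overlapped.

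Cenpf, a kinetochore protein, had a pattern of its own. It stood at 4.83, 4.87, 4.90 and 4.66 in VEGFR1del_VEGFB, 5.08 and 5.32 in WT_VEGFB, 5.62, 5.29 and 5.30 in VEGFR1del_Scramble and 5.40, 4.95 and 4.47 in WT_Scramble. VEGFR1del_VEGFB lay below WT_VEGFB and below VEGFR1del_Scramble without overlap. Its differences were -0.58 (SE 0.18) against VEGFR1del_Scramble, with an adjusted p of 0.0784, and -0.12 against WT_Scramble, with an adjusted p of 0.66. Without the library labelled VEGFR1del_Scramble replicate 3 the first was -0.64 (adjusted p = 0.0841), and it came under the threshold without WT_Scramble replicate 1 or 3, at adjusted p of 0.0385 and 0.0347. A second Cenpf probe did not show this pattern. It was detected on 2 VEGFR1del_VEGFB arrays and on no other, and averaged 4.87 in VEGFR1del_VEGFB, 4.57 in WT_VEGFB, 4.72 in VEGFR1del_Scramble and 4.73 in WT_Scramble, so VEGFR1del_VEGFB was highest rather than lowest.

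Between WT_VEGFB and WT_Scramble hearts, which differ in the virus and in the set of the authors' table, 1 of 21 measured members rose and 0 fell. Over all genes 1.99% were called. The member was Mcm6, higher by 0.73 (SE 0.16, adjusted p = 0.0407). The median difference of the measured members was 0.26, against -0.02 over all genes, and 4 members had an unadjusted p under 0.05, against 15.5% of all genes: Mcm6, Tyms, Prc1 and Top2a. Tyms differed by 0.61 (SE 0.20, adjusted p = 0.145) and Prc1 by 0.73 (SE 0.28, adjusted p = 0.221). Top2a was detected on no WT_Scramble array. Its group mean was at least 1.15-fold higher in WT_VEGFB, which did not pass the test (adjusted p = 0.197). The values of WT_VEGFB lay above those of WT_Scramble without overlap for 8 members, against 17% of all genes. For 1 member, Rrm1, they lay below without overlap, though its second probe overlapped. With 2 arrays in WT_VEGFB the Mcm6 call was not stable. It was lost on leaving out either WT_VEGFB array, any WT_Scramble array, VEGFR1del_Scramble replicate 2 or VEGFR1del_VEGFB replicate 2 or 4. With the set as a fixed block in sets 1 and 2, Mcm6 differed by 0.54 (adjusted p = 0.674). That fit takes the library labelled VEGFR1del_Scramble replicate 3, the only other array in the set of WT_VEGFB, as deleted, which its Flt1 level goes against.

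Between VEGFR1del_VEGFB and VEGFR1del_Scramble hearts, 0 of 21 measured members passed limma's test, where 4.61% of all genes were called. The median difference of the measured members was 0.26, against -0.01 over all genes, and 10 members had an unadjusted p under 0.05, against 20.4% of all genes. Prc1 had the smallest p, at 0.79 (SE 0.23, adjusted p = 0.0729). Mcm7 differed by 0.37 (adjusted p = 0.103). Cdk1 and Rrm2 were detected on no VEGFR1del_Scramble array. Their group means were at least 1.16-fold (adjusted p = 0.0992) and at least 1.05-fold (adjusted p = 0.122) higher in VEGFR1del_VEGFB, and neither passed the test. Without the library labelled VEGFR1del_Scramble replicate 3, 7.3% of all genes and 2 members were called: Tyms, higher by 0.61 (adjusted p = 0.0284), and Prc1, higher by 1.01 (adjusted p = 0.0291). Then 13 members had an unadjusted p under 0.05, against 23.2% of all genes, and Mcm7 differed by 0.31 (adjusted p = 0.206). The group means of Cdk1 and Rrm2 were then at least 1.15-fold (adjusted p = 0.061) and at least 1.04-fold (adjusted p = 0.103) higher, and neither passed. That library had the highest Prc1, Tyms and Cdk1 signal of its group. Prc1 was also called without VEGFR1del_VEGFB replicate 4 (adjusted p = 0.0433). Of all called genes 61.1% were higher, and 95.9% when arrays were scaled to a common median, where 7.37% of all genes and 4 members were called, the members all higher.

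Between VEGFR1del_Scramble and WT_Scramble hearts, 0 of 21 measured members were called by limma, where 0.0562% of all genes were. The median difference of the measured members was 0.21, against -0.01 over all genes, and 7 had an unadjusted p under 0.05, against 11.4% of all genes. Bub1b was closest to the threshold, at 0.48 (SE 0.10, adjusted p = 0.0725). Prc1 differed by 0.68 (SE 0.25, adjusted p = 0.297). Plk1, detected on no WT_Scramble array, had a group mean at least 1.17-fold higher in VEGFR1del_Scramble, which did not pass the test (adjusted p = 0.213). Without the library labelled VEGFR1del_Scramble replicate 3, 3 members had an unadjusted p under 0.05, against 8.85% of all genes. The differences were then 0.43 for Bub1b (adjusted p = 0.249) and 0.46 for Prc1 (adjusted p = 0.652). The group mean of Plk1 was at least 1.25-fold higher, again without a call (adjusted p = 0.307). Within set 1, which holds the 3 WT_Scramble and the 2 other VEGFR1del_Scramble arrays, Bub1b differed by 0.43 (adjusted p = 0.463).

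Between VEGFR1del_VEGFB and WT_VEGFB hearts, 0 of 21 measured members were called by limma, and 0% of all genes. Here 6 members had an unadjusted p under 0.05, against 11% of all genes, and the median difference of the measured members was 0.24. Bub1b differed by 0.51 (SE 0.11, adjusted p = 0.122), Prc1 by 0.74 (SE 0.26, adjusted p = 0.345) and Cdc20 by 0.52 (adjusted p = 0.363). Rrm2, detected on no WT_VEGFB array, had a group mean at least 1.12-fold higher in VEGFR1del_VEGFB, which did not pass the test (adjusted p = 0.304). Mcm6 differed by 0.07 (SE 0.16), with groups that overlapped.

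The interaction asks whether the virus made another difference in deleted than in wild-type hearts. None of the 21 measured members was called by limma, and 0% of all genes, with 2 members at an unadjusted p under 0.05, against 5.04% of all genes. These were Cenpf, at -0.84 (SE 0.27), and Rrm2, both with an adjusted p of 0.975. The second Cenpf probe, undetected in 3 of the 4 groups, had the opposite sign (unadjusted p = 0.0714). Rrm2 was detected on no WT_VEGFB and no VEGFR1del_Scramble array, so no size is given for it. For Prc1 the interaction was 0.06 (SE 0.36) and for Bub1b 0.04 (SE 0.15). Without the library labelled VEGFR1del_Scramble replicate 3 the interaction was -0.90 for Cenpf (adjusted p = 0.797), 0.28 (SE 0.35) for Prc1 and 0.08 (SE 0.15) for Bub1b, again with no call. The standard errors show how large an interaction these arrays would miss. The comparisons share groups of arrays, so their values are not independent of one another.

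**Figure D4:**
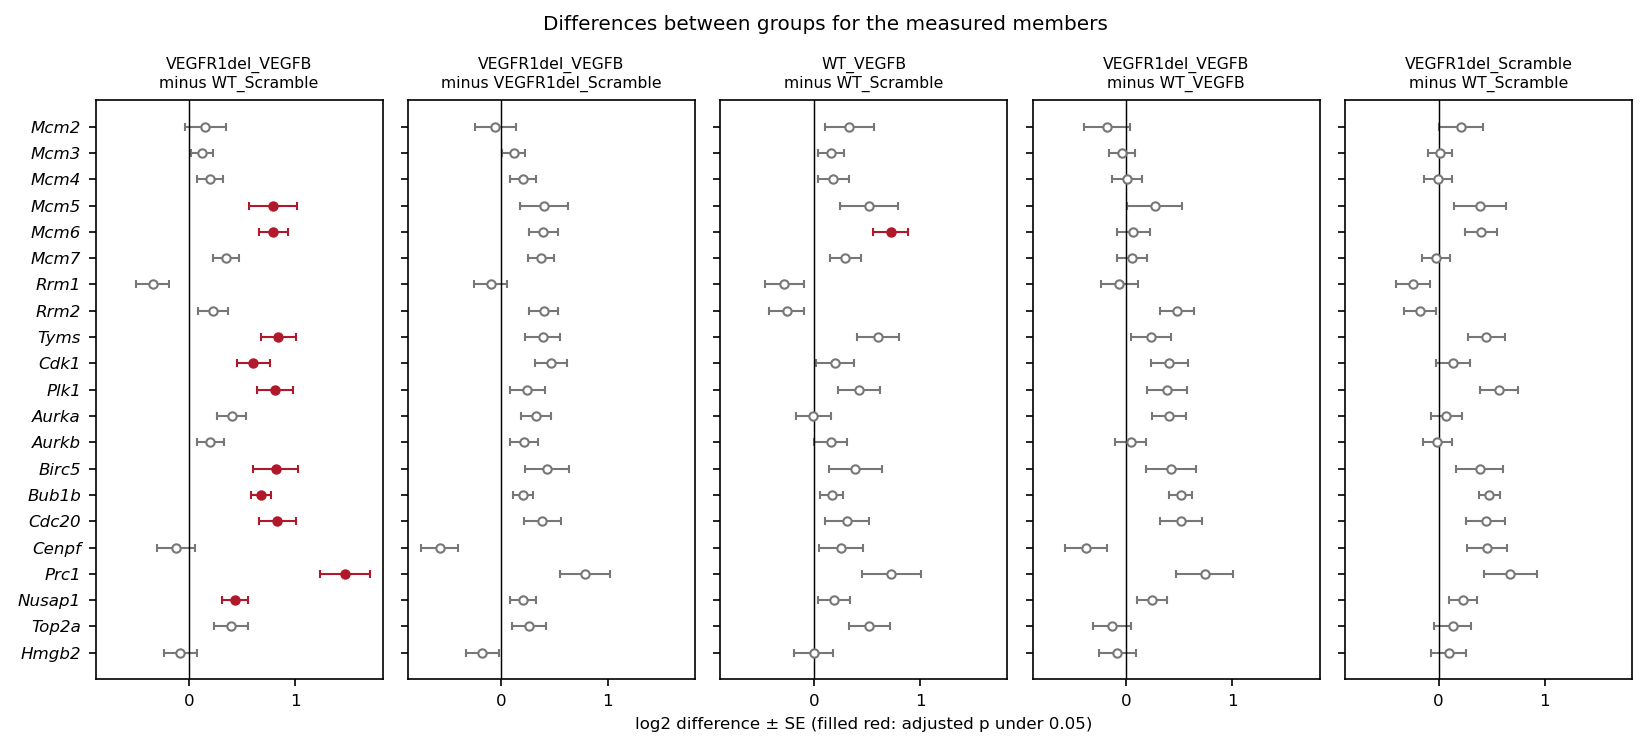
Log2 difference ± SE of the 21 measured members in the 5 comparisons of 2 groups, with filled red points for an adjusted p under 0.05. Between VEGFR1del_VEGFB and WT_Scramble 10 members are filled, between WT_VEGFB and WT_Scramble only Mcm6, and in the other 3 panels none. Differences of members undetected in a group, such as Plk1 in WT_Scramble, are against background signal.

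Other genes of the cell cycle were read from 4 lists chosen for the pathway. In VEGFR1del_VEGFB against WT_Scramble hearts, 10 of 38 other measured mitosis genes rose and 1 fell, with a list median of 0.07. Over all genes 11.6% rose and 9.43% fell, with a median of -0.03, and the counts of the other 3 lists stand against the same shares. Anln, the contractile ring protein anillin, stood at 6.16, 5.92, 5.82 and 5.95 in VEGFR1del_VEGFB, 5.74 and 5.45 in WT_VEGFB, 5.23, 5.01 and 5.30 in VEGFR1del_Scramble and 4.84, 4.88 and 5.01 in WT_Scramble. Its difference of 1.05 (SE 0.12) had an adjusted p of 8.42e-05. Kif23, a central spindle kinesin, rose by 1.08, Cdca8 (borealin, of the passenger complex) by 1.11 and Cdca3 by 0.79, with adjusted p between 0.000339 and 0.00105. Incenp, the scaffold of that complex, was detected on no WT_Scramble array and was at least 1.37-fold higher (adjusted p = 0.00149). Cdca8 and Incenp belong to the complex of survivin.

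Of 34 measured origin and replication fork genes, 8 rose and 2 fell, where 11.6% of all genes rose and 9.43% fell. Timeless, a fork protection protein, rose by 0.99 (SE 0.18, adjusted p = 0.00162) and Pola2, of DNA polymerase alpha, by 0.68 (SE 0.13, adjusted p = 0.00295). Of 23 measured genes of the first gap phase and of cell cycle inhibition, 6 rose and 1 fell. They were of opposite roles: the cyclins Ccnd1, at 1.03 (SE 0.19, adjusted p = 0.00233), and Ccnd3, at 0.50, promote entry into the cycle, while Cdkn1a, the kinase inhibitor p21, at 0.85 (SE 0.12, adjusted p = 0.000357), restrains it. Of 13 measured genes of nucleotide supply 0 rose and 5 fell: Dut, Gart, Shmt2, Rrm2b and Umps, by 0.39 to 0.50, named after their values were seen.

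In WT_VEGFB against WT_Scramble hearts, Anln rose by 0.68 (SE 0.14, adjusted p = 0.026), Kif23 by 0.90 (SE 0.18, adjusted p = 0.0261) and Timeless by 0.90 (SE 0.21, adjusted p = 0.0466). These were 2 of 38 mitosis and 1 of 34 origin and fork genes. No call fell among the 23 first gap phase and inhibition or the 13 nucleotide genes. Over all genes 1.99% were called. In VEGFR1del_VEGFB against VEGFR1del_Scramble hearts, 3 of 38 mitosis genes, 1 of 23 first gap phase and inhibition genes, 0 of 34 origin and fork genes and 0 of 13 nucleotide genes were called. Over all genes 4.61% were called. Anln rose by 0.78 (SE 0.12, adjusted p = 0.00922) and E2f1, a factor that activates replication genes, by 0.88 (SE 0.18, adjusted p = 0.0209). Cdca3 rose by 0.57 (adjusted p = 0.0233) and Incenp by 0.50 (adjusted p = 0.0322). Without the library labelled VEGFR1del_Scramble replicate 3 these differences were 0.84 for Anln (adjusted p = 0.00505), 1.01 for E2f1 (adjusted p = 0.0128), 0.63 for Cdca3 (adjusted p = 0.0174) and 0.44 for Incenp, which lost the call (adjusted p = 0.0669). In that fit 9 genes of the 4 lists were called, more than with the library, where 7.3% of all genes were. Those called only without the library are not named here. In the comparisons of the deletion within one virus, where 0.0562% of all genes with AAV-Scramble and 0% with AAV-VEGF-B were called, no gene of these 4 lists was.

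Markers of other heart cell types moved beside the members. In VEGFR1del_VEGFB against WT_Scramble hearts, 12 of 14 measured endothelial markers rose, with a median of 0.98, among them Pecam1 (0.68) and Cdh5 (1.25). Of 7 pericyte markers 6 rose, with a median of 0.98. Of 3 neutrophil markers 2 rose, with the larger median of 1.55. Of 6 T and NK cell markers 2 rose (median 0.68) and of 9 macrophage markers 1 (median 0.41). Over all genes 11.6% rose and 9.43% fell. Of 7 fibroblast markers 1 rose and 2 fell. Of 9 cardiomyocyte markers none rose and 1, Pln, fell, with a median of 0.04. Per array, the median endothelial deviation from the WT_Scramble mean was 0.84 to 1.05 in VEGFR1del_VEGFB, 0.42 and 0.61 in WT_VEGFB, 0.27 to 0.60 in VEGFR1del_Scramble and -0.05 to 0.06 in WT_Scramble. On the same scale the measured members stood at 0.33 to 0.49 in VEGFR1del_VEGFB, 0.23 and 0.38 in WT_VEGFB, 0.075 to 0.35 in VEGFR1del_Scramble and -0.034 to 0.060 in WT_Scramble. The highest VEGFR1del_Scramble value was that of replicate 3 for both, at 0.60 for the endothelial markers and 0.35 for the members. The part of these cell types in the members' values was not tested. In whole hearts more cells of a type and more RNA per cell cannot be told apart.

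The log2 of the summed linear signal of the endothelial markers was 15.01 to 15.08 in VEGFR1del_VEGFB, 14.69 and 14.73 in WT_VEGFB, 14.39 to 14.80 in VEGFR1del_Scramble and 13.997 to 14.12 in WT_Scramble. For the pericyte markers it was 12.13 to 12.30 in VEGFR1del_VEGFB, 11.99 on both WT_VEGFB arrays, 11.72 to 12.03 in VEGFR1del_Scramble and 11.33 to 11.50 in WT_Scramble. The cardiomyocyte markers were bright on all 12 arrays, at 16.91 to 16.98, so the defining markers of heart muscle were present on every array. VEGFR1del_VEGFB replicate 3 stood apart in T and NK cell markers, at a median deviation of 1.69, against 0.20 to 0.45 on the other 3 arrays of its group. That array had the highest Cdk1, Birc5, Mcm5, Mcm6, Tyms and Top2a signal of the group, while Prc1, Cdc20 and Bub1b were highest on replicate 1. Without VEGFR1del_VEGFB replicate 3, 8 members were called between VEGFR1del_VEGFB and WT_Scramble, Mcm5 and Nusap1 no longer among them.

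**Figure D5:**
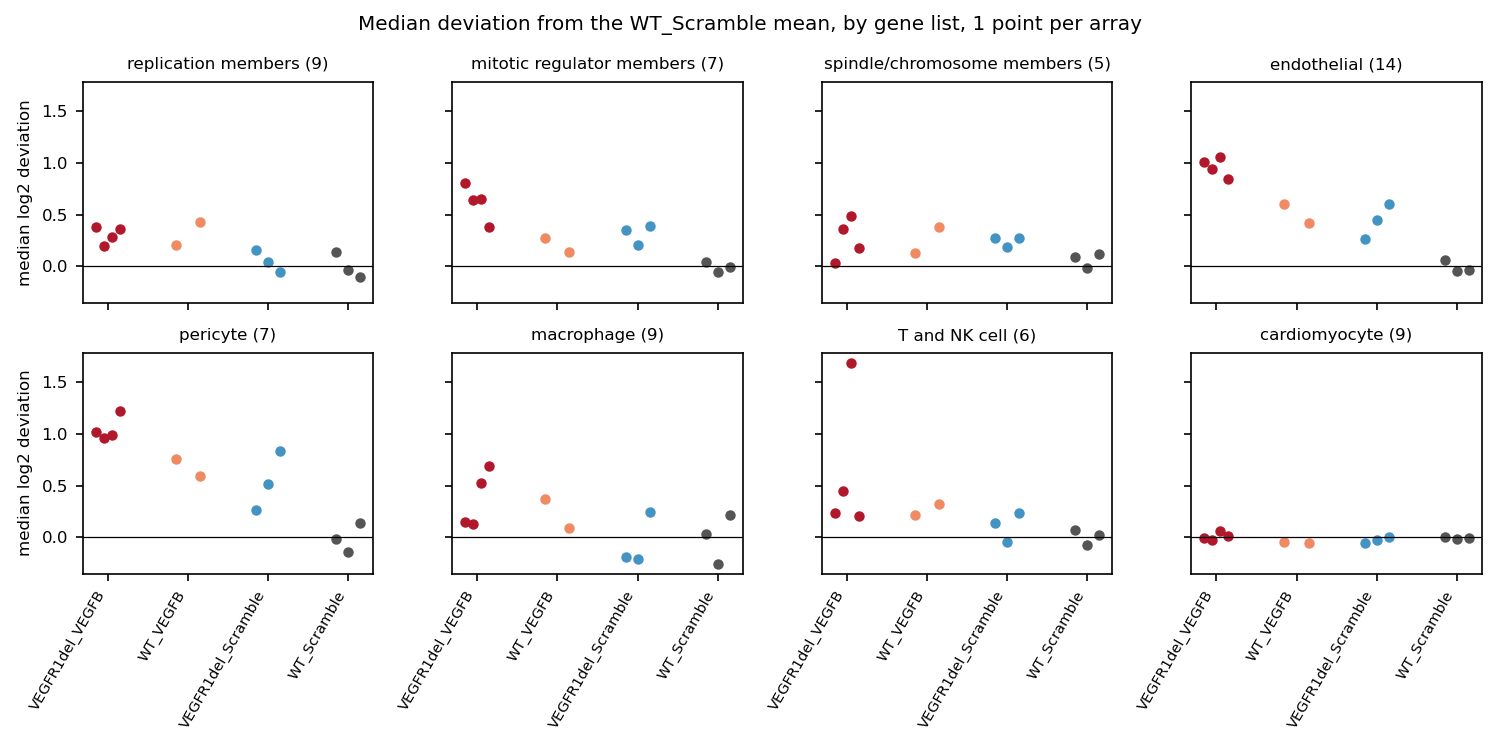
Median over each gene list of the log2 deviation from the WT_Scramble mean, 1 point per array, for the members by role (upper row, first 3 panels) and for markers of 5 cell types. Endothelial and pericyte markers are highest on all 4 VEGFR1del_VEGFB arrays and mitotic regulators on 3 of these 4, cardiomyocyte markers stay near 0 on every array, and 1 VEGFR1del_VEGFB array is far above the rest in T and NK cell markers.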

How the data were processed

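Total RNA from 12 hearts was labelled as biotinylated cRNA, per the labels' protocols. The authors deposited a table of probe signals (intensity, linear scale, not normalized) with a detection p-value beside each, per the file headers. A second deposited table holds log2 values that were quantile normalized in 3 sets of arrays, as found from the values; the software and the reason are not given in the sources used here. The number of arrays limits the precision.

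Signals were background corrected from the detection p, given an offset of 16 and quantile normalized over 12 arrays with neqc (limma 3.58.1, R 4.3.3). Probes with a detection p under 0.05 on at least 2 arrays (20312 of 45281) were kept, and each gene was represented by its probe of highest mean, giving 14240 genes, 11009 with a symbol and the rest single probes without one. Of all probes 34885 had 1 symbol in the platform annotation, 18 several and 10378 none. lmFit and eBayes fitted all arrays at once, each group having its own mean, with two-sided tests, after a check on simulated data. Where every array of the lower group was undetected, the fold is against the detection floor of those arrays. It is a difference of group means without a standard error, so it is not a confidence limit. Of other cell cycle genes, up to 10 of smallest p per comparison could be named. The members, lists and tests were chosen with earlier results of these data known. Promoters are RefSeq's (GRCm38.p6). Alternatives are given in the closing section.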

Additional observations from a re-analysis of the deposited data

How the results depend on the processing

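Between VEGFR1del_VEGFB and WT_Scramble hearts, 7 to 11 members were called on leaving out 1 array, the lowest without WT_Scramble replicate 2, and 8 to 13 under the other alternatives. Mcm6, Cdc20 and Prc1 were called under each of 24 alternatives and Cdk1 and Plk1 under each of the 23 that kept them, while Bub1b and Tyms lost the call when probes were averaged. Between WT_VEGFB and WT_Scramble the count was 0 to 1 on leaving out an array, 0 with no filter, 0 with probes averaged and 0 with the set as a fixed block (added after seeing the data, with VEGFR1del_Scramble replicate 3 taken as deleted, as labelled), and 1 elsewhere. Between VEGFR1del_VEGFB and VEGFR1del_Scramble it was 0 to 2 on leaving out an array, 1 with an offset of 50 (Prc1), 4 with median scaling (7.37% of all genes), 4 with the authors' deposited values, 1 with no filter (Kif11, detected on no array), 1 with a trended robust prior (Prc1), 1 with only the arrays compared (Cenpf, lower) and 1 with every probe tested (Birc5). The Birc5 call with every probe tested came from its second probe, which passed the filter only through the 4 VEGFR1del_VEGFB arrays, where it is high. No alternative gave a call for the deletion within a virus or for the interaction, and leaving out an array gave 0 to 0.

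Medians of the measured members moved with the scale and the filter by more than the 0.0891 SD of arrays within groups. Without background correction, with an offset of 50 and with the authors' values they were 0.14, 0.21 and 0.23 between VEGFR1del_VEGFB and WT_Scramble, 0.10, 0.16 and 0.16 between VEGFR1del_VEGFB and VEGFR1del_Scramble, 0.066, 0.11 and 0.073 for the deletion with AAV-Scramble and 0.074, 0.12 and 0.11 for the deletion with AAV-VEGF-B. Between WT_VEGFB and WT_Scramble they were 0.11 without correction, 0.14 with the authors' values, 0.16 with no filter and 0.08 with the set as a fixed block. With no filter the others were 0.20 (VEGFR1del_VEGFB against WT_Scramble), 0.074 (deletion, AAV-Scramble) and 0.053 (deletion, AAV-VEGF-B). A filter of detection p under 0.01 on 3 arrays gave 0.73, 0.38 (VEGFR1del_VEGFB against VEGFR1del_Scramble) and 0.39 (deletion, AAV-Scramble). Median scaling gave 0.49, 0.40 between VEGFR1del_VEGFB and VEGFR1del_Scramble and 0.37 between WT_VEGFB and WT_Scramble, where it shifted all genes by 0.06, 0.12 and 0.12; relative to these shifts the medians were 0.43, 0.28 and 0.26. Leaving out an array gave medians of 0.37 to 0.46 (VEGFR1del_VEGFB against WT_Scramble), 0.22 to 0.33 (against VEGFR1del_Scramble), 0.20 to 0.37 (virus in wild type), 0.13 to 0.26 (deletion, AAV-Scramble), 0.084 to 0.24 (deletion, AAV-VEGF-B) and -0.10 to 0.032 (interaction). The cause of these moves was not tested.

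Deviations of same-numbered arrays correlated at -0.04 to 0.11 over 15 pairs (median 0.02). Over 38 pairs of other numbers they correlated at -0.13 to 0.16 (median -0.03). Deviations from the mean of a few arrays depend on one another, so these values cannot decide whether replicate numbers pair the arrays. With the replicate block, 9 members were called between VEGFR1del_VEGFB and WT_Scramble, 2 between VEGFR1del_VEGFB and VEGFR1del_Scramble (Birc5 and Prc1) and 1 between WT_VEGFB and WT_Scramble, and the median for the deletion with AAV-VEGF-B was 0.11. In 3 cases the direction turned, none of them called: Tyms between WT_VEGFB and WT_Scramble was -0.029 with the set as a fixed block, and Rrm1 between VEGFR1del_VEGFB and WT_Scramble was 0.12 without WT_Scramble replicate 3 and 0.079 without VEGFR1del_Scramble replicate 3, where its other probe had the higher mean and stood for the gene; over single arrays left out it ran from -0.44 to 0.12. Members close to background, such as Cdk1, Mcm3, Aurkb and Top2a, have differences that the signal over background limits.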
